A study of Bos taurus and Bos indicus with 3 samples.

Results

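Gene models named as RAB genes and measurable in circulating leukocytes of cattle were compared among 3 breeds. Genes of the family that the table lists under other names are outside the ranks, sums and shares below. A gene model was counted as a member when its single name began with RAB followed by a digit, when it was not named as a RAB-interacting protein, and when it was above 0 in at least 1 library. This gave 31 of the 25968 gene models, which carry 30 gene names, because RAB33A stands on 2 models. A further 6 models with a RAB name (RAB3B, RAB3C, RAB15, RAB36, RAB42 and RAB44) were listed at 0 in all 3 libraries, and the member nearest to that limit, RAB6B, had 2.11 FPKM in the Jersey library and was listed at 0 in the others. Another 4 models, RAB11FIP1, RAB11FIP3, RAB11FIP4 and RAB11FIP5, encode proteins that bind RAB11 and were treated as effectors.

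The 3 groups were the Cholistani, an indicine breed (Bos indicus) sampled on a farm in Pakistan, and the Jersey and the Holstein, both taurine dairy breeds (Bos taurus) sampled in Wisconsin. Tail vein blood was drawn from 45 Cholistani, 7 Jersey and 40 Holstein cows, pooled within the breed, and the white cells of each pool gave 1 polyadenylated RNA library. No treatment was applied, the age of the cows is not given in the sources used here, and only the Cholistani RNA was shipped in a dry storage matrix, so breed, farm and handling of the RNA cannot be told apart. With 1 library per breed there was no test, no error and no replicate check for any value, and the comparisons rest on a 2-fold limit in FPKM + 1.

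RAB proteins are small GTPases of the Ras superfamily that direct membrane traffic. Each binds a particular membrane through a C-terminal lipid anchor, is switched on by an exchange factor (GEF) that loads GTP, recruits effectors that tether, move or fuse vesicles, and is switched off by a GTPase-activating protein (GAP), after which a GDP dissociation inhibitor (GDI) takes it back to the cytosol. In leukocytes this traffic serves the uptake and killing of microbes, antigen presentation, the recycling of surface receptors and the release of granules.

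Values are FPKM, in which fragments are scaled to the length of the transcript, so that levels of different genes can be compared per length. Between libraries the authors scaled them by upper-quartile normalization, which does not require equal sums. The number of fragments behind a value is unknown. FPKM over all models summed to 9518432 in Cholistani, 6288105 in Jersey and 5949765 in Holstein, and setting the sums equal moved the median log2 fold of all models between Cholistani and Holstein from 0.15 to -0.43. Between Cholistani and Jersey it moved from 0.12 to -0.41. The members whose direction turns with this step are named with each comparison, and ratios between genes of the same library do not depend on it.

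RAB transcripts were present in all 3 breeds, and 16 of the 31 models lay above the median model in each library. That median splits the models above 0 in a library evenly by definition, and 16 of 31 is near an even split. Of the 31 models, 28 were above 0 in Cholistani, 29 in Jersey and 28 in Holstein, and 26 were above 0 in all 3, against a background of 79.8% of the 15284 models tested. The median member above 0 had 166 FPKM in Cholistani, 133 in Jersey and 142 in Holstein, where the median of all models above 0 was 93.8, 89.6 and 91.6 FPKM. Together the members held 0.111% of all FPKM in Cholistani, 0.123% in Jersey and 0.130% in Holstein. The 5 most abundant members took 67.6%, 58.6% and 56.7% of that RAB sum in the same order of breeds. The plot of FPKM by role shows the spread of levels.

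**Figure D1:**
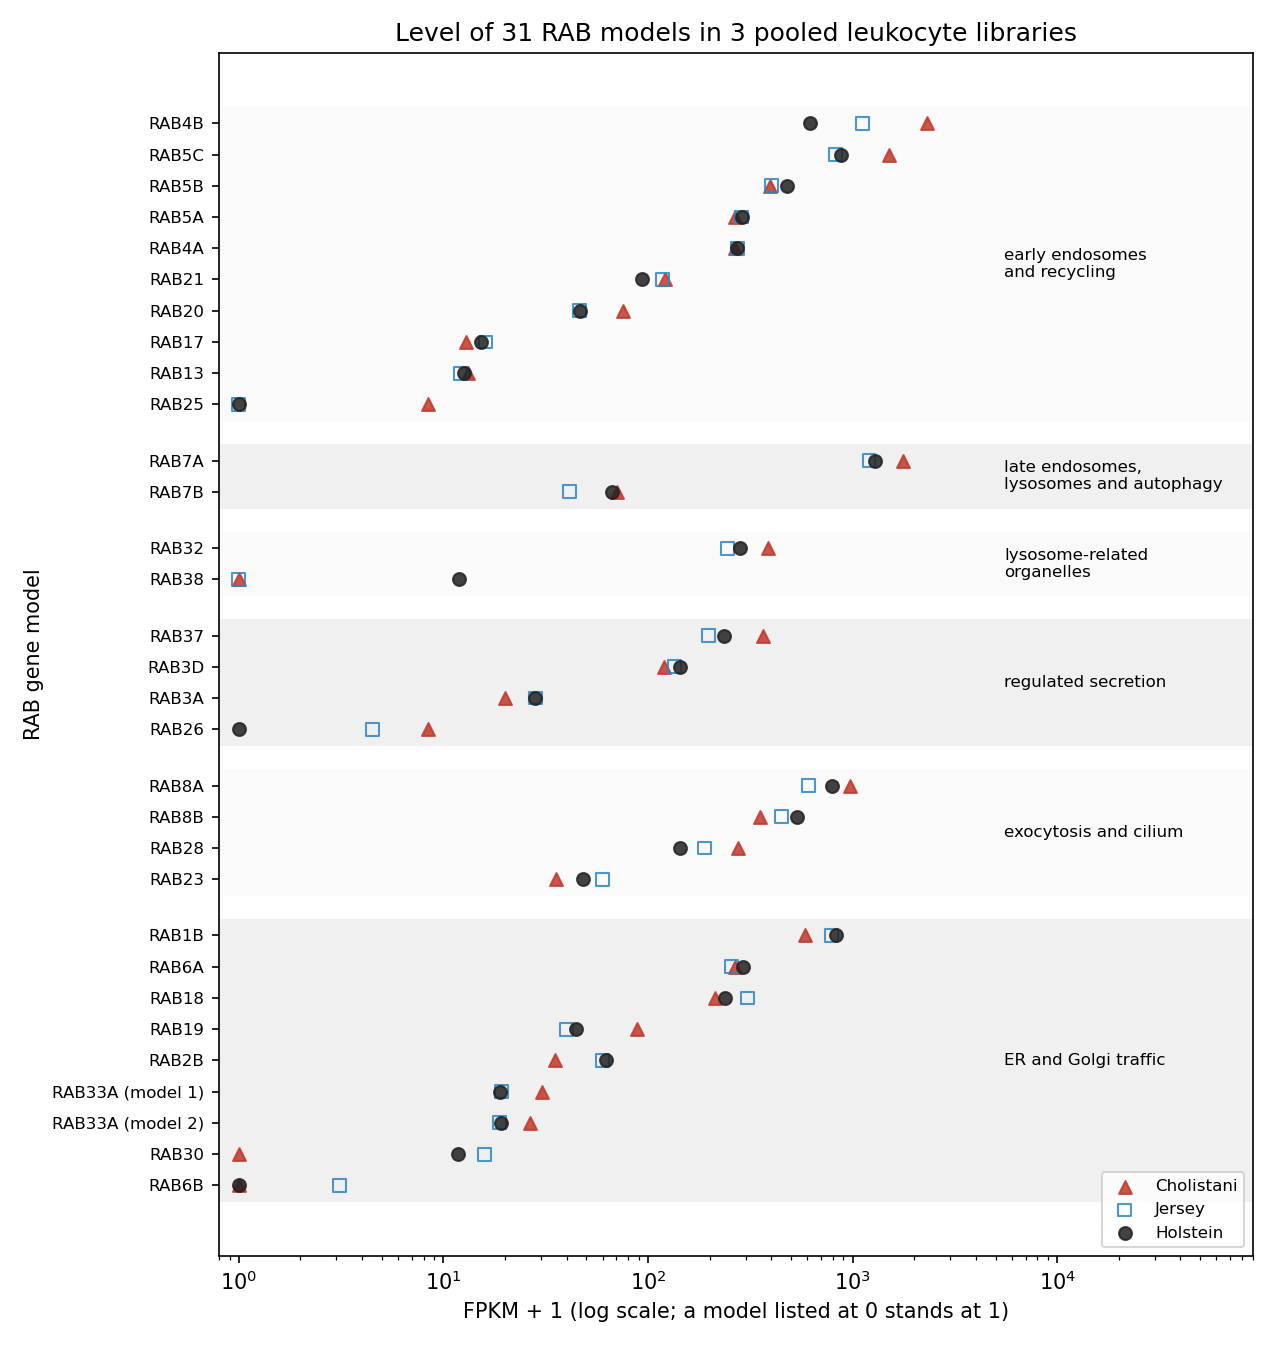
FPKM + 1 on a log axis for each of the 31 RAB models (rows, grouped by role) in the pooled Cholistani (triangles), Jersey (open squares) and Holstein (circles) libraries, 1 point per library, with a model listed at 0 standing at 1. Levels run from models listed at 0 to RAB4B at 2305 FPKM in Cholistani, and the Jersey and Holstein points lie close together for most rows.

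The early endosome and recycling RABs were the largest part of the RAB sum in every library. RAB4B, which returns internalised receptors to the cell surface, had 2305 FPKM in Cholistani, 1112 in Jersey and 616 in Holstein. The Cholistani value was 2.07 times the Jersey value and 3.74 times the Holstein value, and Jersey was 1.81 times Holstein, so RAB4B had rank 1 among the RAB models in Cholistani, rank 2 in Jersey and rank 5 in Holstein. Its close relative RAB4A had 265 FPKM in Cholistani, 273 in Jersey and 270.1 in Holstein. These deposited levels were close, but with the sums set equal RAB4A had a log2 fold of -0.64 over Jersey and -0.70 over Holstein in Cholistani. The ratio of RAB4B to RAB4A within a library was thus 8.71 in Cholistani, 4.06 in Jersey and 2.28 in Holstein.

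The listed position of RAB4B limits this result. The model lies on chromosome 18 from 49622948 to 49694093 (btau4.0), and 4 other models are listed with exactly the same span. One merges MIA with SNRPA, a splicing protein gene, and had 324 FPKM in Cholistani, 231 in Jersey and 113 in Holstein. Another, CS054, had 48.3, 34.1 and 17.0 FPKM. Both were ordered as RAB4B was, with Cholistani at 2.88 and 2.84 times the Holstein value. ADCK4 was highest in Holstein instead, with 207 FPKM in Cholistani and 157 in Jersey against 378 in Holstein, and the model with the accession Q0P5N0 had 24.7, 44.2 and 32.5 FPKM. RAB4B held 79.2% of the FPKM of these 5 models in Cholistani, 70.4% in Jersey and 53.3% in Holstein. Whether reads of overlapping transcripts were divided differently among the 5 models was not tested.

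RAB5 proteins drive the fusion of early endosomes and exist in 3 forms, of which RAB5C was the most abundant in each library. RAB5C (chromosome 19 from 43592835 to 43597916) had 1510.4 FPKM in Cholistani, 823 in Jersey and 877 in Holstein. RAB5A had 264 FPKM in Cholistani, 284 in Jersey and 287 in Holstein, and RAB5B had 395, 401 and 474 FPKM. As deposited, RAB5C in Cholistani was 1.84 times the Jersey value and 1.72 times the Holstein value, below the 2-fold limit. With the sums set equal the log2 folds over Holstein were 0.11 for RAB5C, -0.79 for RAB5A and -0.94 for RAB5B, so which of the 3 genes was nearest to level depended on the scaling. RAB5C made up 69.6% of the RAB5 sum in Cholistani, against 54.6% in Jersey and 53.5% in Holstein. Per unit of RAB5A there was 5.71 RAB5C in Cholistani, 2.90 in Jersey and 3.05 in Holstein, whereas the ratio of RAB5B to RAB5A was 1.49, 1.41 and 1.65.

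**Figure D2:**
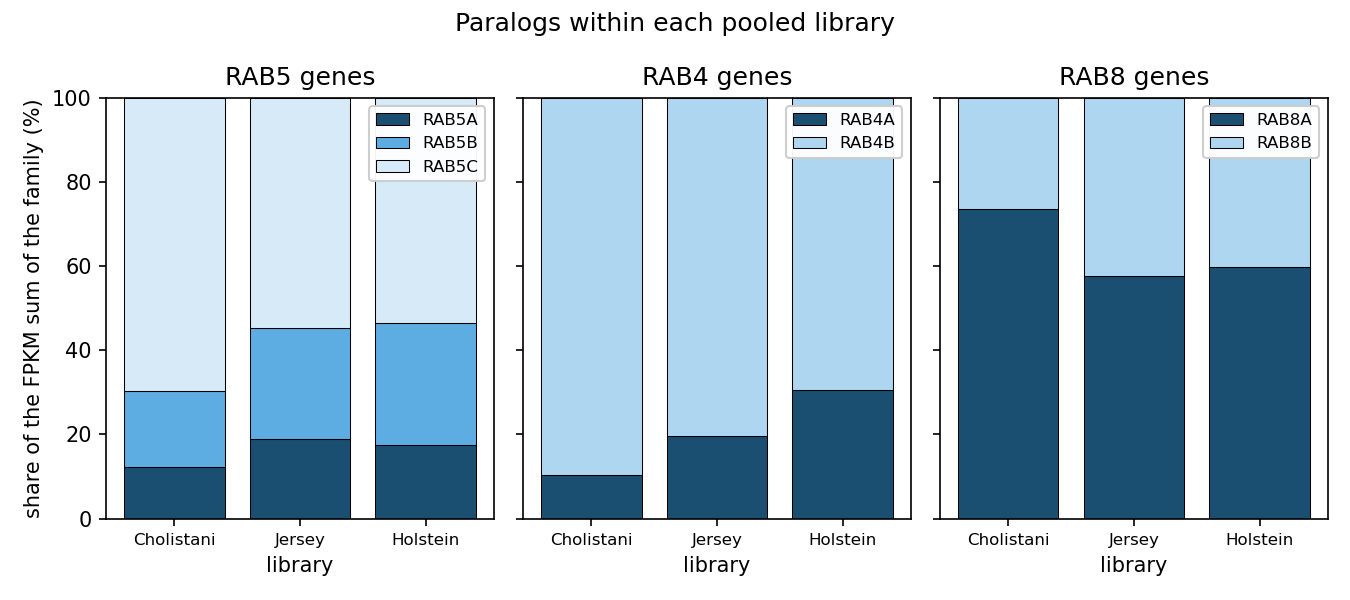
Share of each gene in the summed FPKM of its family (%), for the RAB5, RAB4 and RAB8 genes, in the pooled Cholistani, Jersey and Holstein libraries (1 stacked bar per library, no error bars). RAB5C, RAB4B and RAB8A take a larger share in Cholistani (69.6%, 89.7% and 73.5%) than in Jersey (54.6%, 80.3% and 57.6%) and in Holstein (53.5%, 69.5% and 59.7%). Other families, not drawn, moved less. In Cholistani, Jersey and Holstein, RAB7A took 96.2%, 96.7% and 95.1% beside RAB7B, and RAB3D 86.3%, 83.1% and 84.1% beside RAB3A. RAB6A took 100%, 99.2% and 100% beside RAB6B, and RAB32 100%, 100% and 96.3% beside RAB38.

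The other endocytic RABs were less abundant. RAB21, which handles integrin traffic, had 121 FPKM in Cholistani, 117 in Jersey and 91.9 in Holstein. RAB20, known from phagosome maturation in macrophages, had 74.1 FPKM in Cholistani, 45.1 in Jersey and 45.4 in Holstein, so that the taurine libraries were nearly equal. RAB17 and RAB13, best known from polarised epithelia, lay between 11.1 and 15.1 FPKM in all libraries. RAB25, an epithelial relative of RAB11 (chromosome 3 from 16037737 to 16044808), had 7.42 FPKM in Cholistani and was listed at 0 in Jersey and Holstein. The early endosome and recycling group held 47.0% of the RAB sum in Cholistani, 39.8% in Jersey and 34.7% in Holstein, but leaving out RAB4B its shares were 32.2%, 29.7% and 29.1%.

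Of the late endosomal RABs, RAB7A, which carries cargo to lysosomes and is needed for phagosomes to mature, was the most abundant member in both taurine libraries. RAB7A (chromosome 22 from 60995416 to 61041187) had 1755 FPKM in Cholistani, 1200.3 in Jersey and 1281 in Holstein. Its percentile among all models above 0 was 95.4 in Cholistani, 95.3 in Jersey and 95.6 in Holstein, so its standing within each library was almost the same. RAB7B, which acts between endosomes and the Golgi, had 69.7 FPKM in Cholistani, 40.4 in Jersey and 65.9 in Holstein, and here Jersey was the lowest library.

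Lysosome-related organelles were represented by RAB32 and RAB38, which serve pigment granules and, for RAB32, defence against bacteria in mouse macrophages. RAB32 had 385 FPKM in Cholistani, 243 in Jersey and 280.05 in Holstein, and had rank 7 among the RAB models in Cholistani. RAB38 (chromosome 29 from 7663327 to 7728701) had 10.9 FPKM in Holstein and was listed at 0 in Cholistani and Jersey. No other member that reached 10 FPKM in Jersey or Holstein was past the 2-fold limit between them.

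RABs of regulated secretion followed no common order. RAB37, found on mast cell granules in the mouse, had 362 FPKM in Cholistani, 197 in Jersey and 234 in Holstein. RAB3D, a RAB of secretory granules in gland cells, had 119 FPKM in Cholistani, 133 in Jersey and 143 in Holstein, and RAB3A, the RAB of synaptic vesicles, had 19.0, 27.1 and 27.0 FPKM. RAB37 exceeded RAB3D 3.04 times in Cholistani, 1.48 times in Jersey and 1.64 times in Holstein. RAB26, named after its values were seen, had 7.44 FPKM in Cholistani and 3.51 in Jersey and was listed at 0 in Holstein. Of 5 listed markers of eosinophils and mast cells, 2 were found by name, PRG3 and CPA3. Their summed level was 0 FPKM in Cholistani, 33.1 in Jersey and 3.70 in Holstein. The markers not found by name have no value, so the content of these cells cannot be read. Their part in the level of RAB37 was not tested.

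RAB8 proteins carry vesicles from the Golgi to the plasma membrane and into the primary cilium. RAB8A (chromosome 7 from 7352057 to 7372234) had 975 FPKM in Cholistani, 609 in Jersey and 788 in Holstein. RAB8B (chromosome 10 from 47121547 to 47191586) had its lowest level in Cholistani, at 351 FPKM, against 448 in Jersey and 531 in Holstein. As deposited the 2 genes therefore diverged, and the ratio of RAB8A to RAB8B was 2.78 in Cholistani, 1.36 in Jersey and 1.48 in Holstein. With the sums set equal, the log2 folds in Cholistani over Holstein were -0.37 for RAB8A and -1.27 for RAB8B. Over Jersey they were 0.08 and -0.95. RAB28, linked to photoreceptor cilia in humans, had 274 FPKM in Cholistani, 188 in Jersey and 142 in Holstein. RAB23, an inhibitor of hedgehog signalling, had 34.6, 58.8 and 47.2 FPKM and was lowest in Cholistani.

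The ER and Golgi group held a smaller part of the RAB sum in Cholistani (11.7%) than in Jersey (19.4%) and Holstein (19.4%). Without RAB4B in the sum the shares were 15.0%, 22.7% and 21.1%. The leading model of the group, named RAB1B, had 585 FPKM in Cholistani, 790.4 in Jersey and 825 in Holstein, so that the ratio of RAB7A to it was 3.0 in Cholistani, 1.52 in Jersey and 1.55 in Holstein. RAB6A, which returns cargo from endosomes through the Golgi, had 265, 255 and 291 FPKM. Its log2 fold in Cholistani was 0.05 over Jersey and -0.13 over Holstein as deposited, and -0.54 and -0.81 with the sums set equal. RAB18, of the ER and lipid droplets, had 212 FPKM in Cholistani, 306 in Jersey and 236 in Holstein.

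The name of the RAB1B model is at odds with its surroundings. The model lies on chromosome 11 from 65258714 to 65287549, and of the 12 models on either side none is a named neighbour of RAB1B in the RefSeq genes of the ARS-UCD2.0 assembly. With the RefSeq neighbours of RAB1A it shared 7 genes, among them CEP68, SERTAD2, AFTPH and SPRED2. The other 30 models each shared at least 1 neighbour with the RefSeq gene of their own name. RAB1A and RAB1B are close paralogs that both serve traffic from the ER to the Golgi, and the values above are those of the model as named in the table.

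The low members of the group differed in direction. RAB2B, a Golgi RAB, had 34.0 FPKM in Cholistani, 58.8 in Jersey and 61.2 in Holstein, the lowest Cholistani value relative to Holstein among the members above 0 in all 3 libraries (0.557 times). RAB19 (chromosome 4 from 107489532 to 107502666) had 87.1 FPKM in Cholistani, 38.9 in Jersey and 43.5 in Holstein, 2.24 times the Jersey value. On the FPKM + 1 scale its log2 fold was 1.14 over Jersey and 0.99 over Holstein. RAB30, a Golgi RAB (chromosome 29 from 13204183 to 13298917), was listed at 0 in Cholistani and had 14.9 FPKM in Jersey and 10.7 in Holstein.

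The 2 models named RAB33A on chromosome X start 130674 bases apart. The first, from 6765573 to 6775194, had 29.4 FPKM in Cholistani, 18.1 in Jersey and 17.9 in Holstein, and the second, from 6896247 to 6906004, had 25.6, 17.7 and 18.1 FPKM. Their levels were alike in each library. Since the authors kept reads that aligned to several places, reads may be shared between these models, and their values are uncertain as separate measurements.

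Between Cholistani and Holstein, 3 of the 31 members (9.68%) were at least 2-fold higher, where the background was 19.7% of all models, and 2 (6.45%) were at least 2-fold lower, where the background was 13.7%. The higher members were RAB4B (log2 fold 1.90), RAB25 and RAB26, and the lower were RAB30 and RAB38. All except RAB4B were listed at 0 in 1 of these libraries and had at most 10.9 FPKM in the other, so no ratio is given for them. RAB25 was above 0 in Cholistani alone and RAB38 in Holstein alone, so the rule for members fixed the direction of their calls. The median log2 fold of the members was 0.07, beside 0.15 for all models. It was -0.56 with the sums set equal, beside -0.43 for all models. Then 3 members were higher (background 11.6%) and 7 lower (background 27.5%), the added ones being RAB1B, RAB2B, RAB3A, RAB8B and RAB23. RAB4B kept a log2 fold of 1.23 over Holstein, while RAB7A, RAB7B, RAB8A, RAB13, RAB21, RAB32, RAB37 and the second RAB33A model, all above 0 on the log2 scale as deposited, lay below 0.

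Between Cholistani and Jersey, 3 members were at least 2-fold higher (background 17.2%) and 2 lower (background 14.2%). RAB4B (log2 fold 1.05), RAB19 (1.14) and RAB25 were higher, and RAB30 and RAB6B, the second named after its values were seen, were lower. RAB4B and RAB25 were thus the members past the limit upwards against both taurine libraries (background 14.4%), and RAB30 was the one lower than both (background 8.89%). These comparisons share the Cholistani library. With the sums set equal, only RAB25 was still at least 2-fold higher than in Jersey (background 10.4%), because RAB4B had a log2 fold of 0.45 and RAB19 of 0.55, and 7 members were lower (background 26.2%). RAB25 was above 0 in Cholistani alone and RAB6B in Jersey alone. Each became a member only through that library, so the rule for members fixed the direction of its call. The median log2 fold was 0.05 as deposited and -0.42 with the sums set equal. RAB6A, RAB7A, RAB13, RAB21, RAB28 and the second RAB33A model lay above 0 on the log2 scale as deposited and below 0 with the sums set equal.

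Jersey and Holstein differed least. Of the 31 members, 2 were at least 2-fold higher in Jersey (background 7.99%), RAB26 and RAB6B, and 1 was lower (background 4.70%), RAB38. All 3 lay at or below 10.9 FPKM and were listed at 0 in Jersey or in Holstein. RAB6B was above 0 in Jersey alone and RAB38 in Holstein alone, so the rule for members fixed the direction of their calls. With the sums set equal the counts were still 2 higher (background 7.74%) and 1 lower (background 5.11%). RAB3A, RAB4A, RAB17 and the first RAB33A model, at most 0.07 above 0 on the log2 scale as deposited, lay below 0. Among the 26 members with a mean of at least 10 FPKM, the log2 fold ran from -0.69 for RAB7B to 0.85 for RAB4B, with a median absolute value of 0.13, beside 0.20 for all 12576 models of that level. None was past the 2-fold limit (0 higher, background 4.72%, and 0 lower, background 2.47%). The same 26 members had a median absolute log2 fold of 0.46 between Cholistani and Holstein, beside 0.58 for all such models, and of 0.54 between Cholistani and Jersey, beside 0.54. Against Holstein, RAB4B was the 1 member of this level past the limit upwards (background 16.0%), with 0 downwards (background 10.6%). Against Jersey they were 2, RAB4B and RAB19 (background 13.6%), with 0 downwards (background 10.3%).

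The order of levels was largely kept between libraries. Spearman's rank correlation over the members above 0 in both libraries was 0.942 for Cholistani and Holstein. It was 0.944 for Cholistani and Jersey and 0.982 for Jersey and Holstein. Pearson's r over the members above 0 in both libraries, on the log2(FPKM + 1) scale, reached 0.959 for Cholistani and Holstein (26 members), 0.967 for Cholistani and Jersey (27 members) and 0.990 for Jersey and Holstein (27 members). The points are genes of the same libraries and not replicates, and share their lengths and model structures, so these values are a description.

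**Figure D3:**
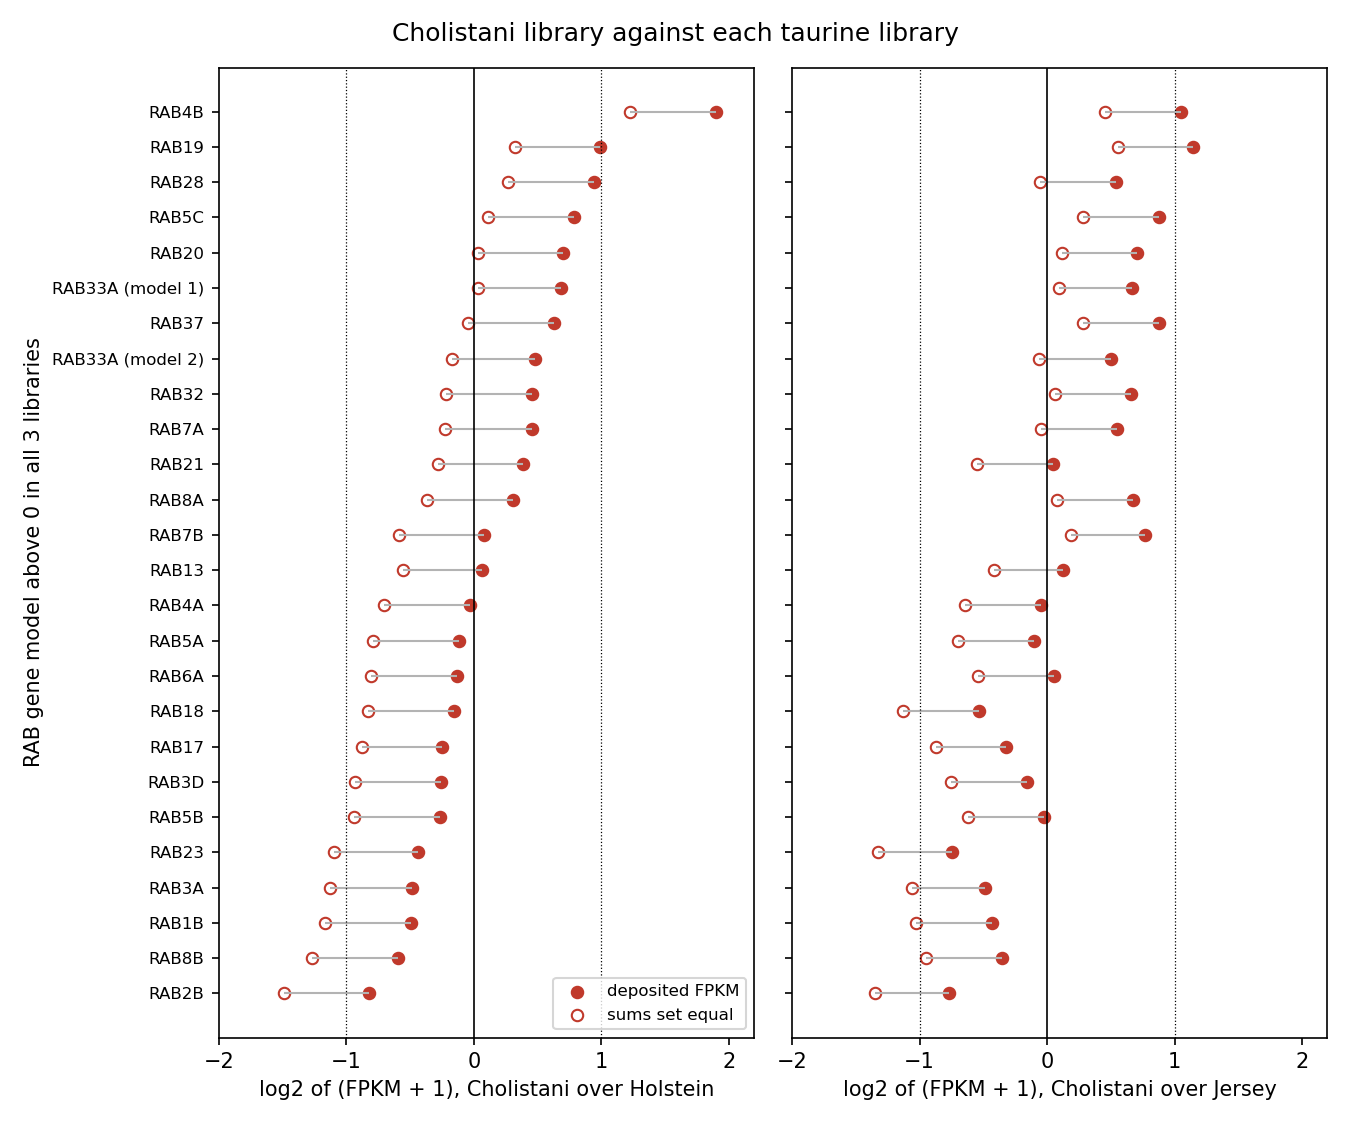
Log2 ratio of FPKM + 1 between the pooled Cholistani library and Holstein (left) or Jersey (right), for the 26 RAB models above 0 in all 3 libraries, as deposited (filled) and with the sums of the libraries set equal (open), with dotted lines at a 2-fold difference. RAB4B is the highest against Holstein (1.90, and 1.23 with equal sums) and RAB2B the lowest (-0.83 as deposited), while setting the sums equal moves every point to the left.

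Another 3 models are named by protein entries that begin with RB and were not members, although they are entries of RAB11A, RAB11B and RAB27B. The ranks, RAB sums and shares given above leave them out, although RB11A and RB11B were among the abundant models. RB11A, of recycling endosomes, had 1109 FPKM in Cholistani, 1014 in Jersey and 1082 in Holstein. RB11B had 933 FPKM in Cholistani, 526 in Jersey and 592 in Holstein. In Cholistani, the log2 fold of RB11A over Holstein was 0.04 as deposited and -0.64 with the sums set equal. Over Jersey it was 0.13 and -0.47. The log2 fold of RB11B was 0.66 and -0.02 over Holstein, and 0.83 and 0.23 over Jersey. RB27B, which docks dense granules of mouse platelets, had 69.2 FPKM in Cholistani, 127 in Jersey and 157 in Holstein. Its log2 fold in Cholistani was -1.17 over Holstein and -0.86 over Jersey as deposited. Platelet markers had a summed level of 1361 FPKM in Cholistani, 4040 in Jersey and 5341 in Holstein (4 of 6 listed genes found, with GP1BA listed at 0 in Cholistani and Jersey). That sum followed TUBB1, a platelet tubulin, with 551, 2997 and 4430.1 FPKM, whereas GP9 had 190.04, 104 and 84.5 FPKM. The part of platelet content in the level of RB27B was not tested, and in such bulk libraries fewer cells of a type and less RNA per cell cannot be told apart.

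The cell markers of the libraries differed as well. Summed T cell markers (5 of 6 found) reached 10623 FPKM in Cholistani, 4887 in Jersey and 4917 in Holstein, and B cell markers (3 of 5) 16162, 8052 and 6542 FPKM. Neutrophil markers (5 of 7, with MMP9 listed at 0 in Jersey) summed to 18374, 16623 and 19238 FPKM, monocyte markers (3 of 5) to 859, 548 and 873, cytotoxic markers (2 of 5) to 2031, 555 and 742, and red cell markers (3 of 6, with AHSP listed at 0 in all libraries and HBA in Holstein) to 102, 375 and 536. These sums depend on the scaling. With all FPKM of each library set to sum to 1000000, neutrophil markers stood at 1930, 2644 and 3233, and monocyte markers at 90.3, 87.1 and 147. On that scale T cell markers stood at 1116, 777 and 826, and B cell markers at 1698, 1281 and 1100. Cytotoxic markers stood at 213, 88.2 and 125, and red cell markers at 10.7, 59.6 and 90.0. Within the deposited sums single genes differed. CXCR2 had 598 FPKM in Cholistani, 7.62 in Jersey and 33.5 in Holstein, and CSF3R had 1976, 532 and 657, while S100A8 and S100A9 made up most of the neutrophil sum. CD79A carried the B cell sum with 14273, 6189.5 and 5281 FPKM, and PAX5 ran the other way with 145, 381 and 296. The red cell sum followed ALAS2 with 32.3, 363 and 536 FPKM, and HBA ran the other way with 69.3 in Cholistani and 11.5 in Jersey. Leukocyte markers were thus present in each library, as the label says. Their part in the RAB levels was not tested.

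The proteins that regulate RABs or bind them were taken from a list of 128 genes, of which 72 were found by name in the table and 65 were above 0 in at least 1 library. Set against Holstein, 2 of the 65 (3.08%) passed the 2-fold limit upwards in Cholistani (background 19.7%) and 11 (16.9%) downwards (background 13.7%). Of these genes 64 reached 10 FPKM in at least 1 library. Among models with a mean of at least 10 FPKM the backgrounds are 16% upwards and 10.6% downwards. With the sums set equal 1 was higher (background 11.6%) and 29 were lower (background 27.5%). The median log2 fold of the listed genes was -0.19, beside 0.15 for all models. With the sums set equal it was -0.86, beside -0.43 for all models. Between Cholistani and Jersey 2 were higher (background 17.2%) and 6 lower (background 14.2%), or 0 and 23 with the sums set equal (backgrounds 10.4% and 26.2%). As deposited, the backgrounds at a mean of at least 10 FPKM are 13.6% and 10.3%. Between Jersey and Holstein none passed the 2-fold limit in either direction (0 higher and 0 lower, backgrounds 7.99% and 4.70%).

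The general RAB recycling factors were the most abundant of these genes. RABAC1, a membrane protein that binds prenylated RABs, had 2584 FPKM in Cholistani, 1304 in Jersey and 1109 in Holstein, with log2 folds of 0.99 over Jersey and 1.22 over Holstein. With the sums set equal the fold over Holstein was 0.54. GDI2, a GDP dissociation inhibitor, had 1312 FPKM in Cholistani, 1319.8 in Jersey and 1226 in Holstein. Its log2 fold over Holstein was 0.10, and -0.58 with the sums set equal. CHML, an escort protein for the attachment of the lipid anchor, was lower in Cholistani, with 13.7 FPKM, against 44.7 in Jersey and 50.3 in Holstein.

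Among the exchange factors, DENND1C, of the DENN family, which acts on RAB35 in human cells, was the one gene of the list that exceeded both taurine libraries at least 2-fold in Cholistani. It had 919 FPKM in Cholistani, 310.1 in Jersey and 262 in Holstein, and its log2 fold over Holstein was 1.81, or 1.13 with the sums set equal. Over Jersey the fold was 1.56, or 0.97. DENND4A, an exchange factor for RAB10, had 119 FPKM in Cholistani, 248 in Jersey and 257 in Holstein, and DENND5B, of the same domain family, had 44.0, 107 and 112 FPKM. These were the 2 exchange factors lower than in both taurine libraries. A further 3 exchange factors were named after their values were seen. MON1A, part of the exchange factor for RAB7, had 102 FPKM in Cholistani, 49.7 in Jersey and 61.02 in Holstein, and passed the limit over Jersey with a log2 fold of 1.02, or 0.43 with the sums set equal. DENND4C had 137 FPKM in Cholistani, 234 in Jersey and 291 in Holstein, and ANKRD27, which acts on RAB21, had 28.2, 47.0 and 61.1 FPKM, both past the limit against Holstein and not against Jersey.

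Of the 16 measured GAPs, 0 passed the 2-fold limit upwards in Cholistani against Holstein (background 19.7%) and 2 (12.5%) downwards (background 13.7%), TBC1D2B and TBC1D9 (the second named after its value was seen). TBC1D2B had 31.1 FPKM in Cholistani, 77.4 in Jersey and 113 in Holstein, and TBC1D9 had 32.3, 59.6 and 90.5 FPKM. Of 26 measured effectors, 0 passed the same limit upwards (background 19.7%) and 4 (15.4%) downwards (background 13.7%). For GAPs and effectors alike, the backgrounds among models with a mean of at least 10 FPKM are 16% and 10.6%. FYCO1, which links RAB7 on autophagosomes to the microtubule motor kinesin, had 9.61 FPKM in Cholistani, 35.95 in Jersey and 37.6 in Holstein. OSBPL1A, a sterol sensor that binds RAB7 on late endosomes, had 7.90, 18.1 and 19.97 FPKM. The remaining effectors below the limit against Holstein, named after their values were seen, were not below it against Jersey. ZFYVE20, which binds RAB4 and RAB5, had 24.5 FPKM in Cholistani, 44.7 in Jersey and 52.8 in Holstein, and SYTL4, which binds RAB27, had 15.5, 26.4 and 33.8 FPKM.

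**Figure D4:**
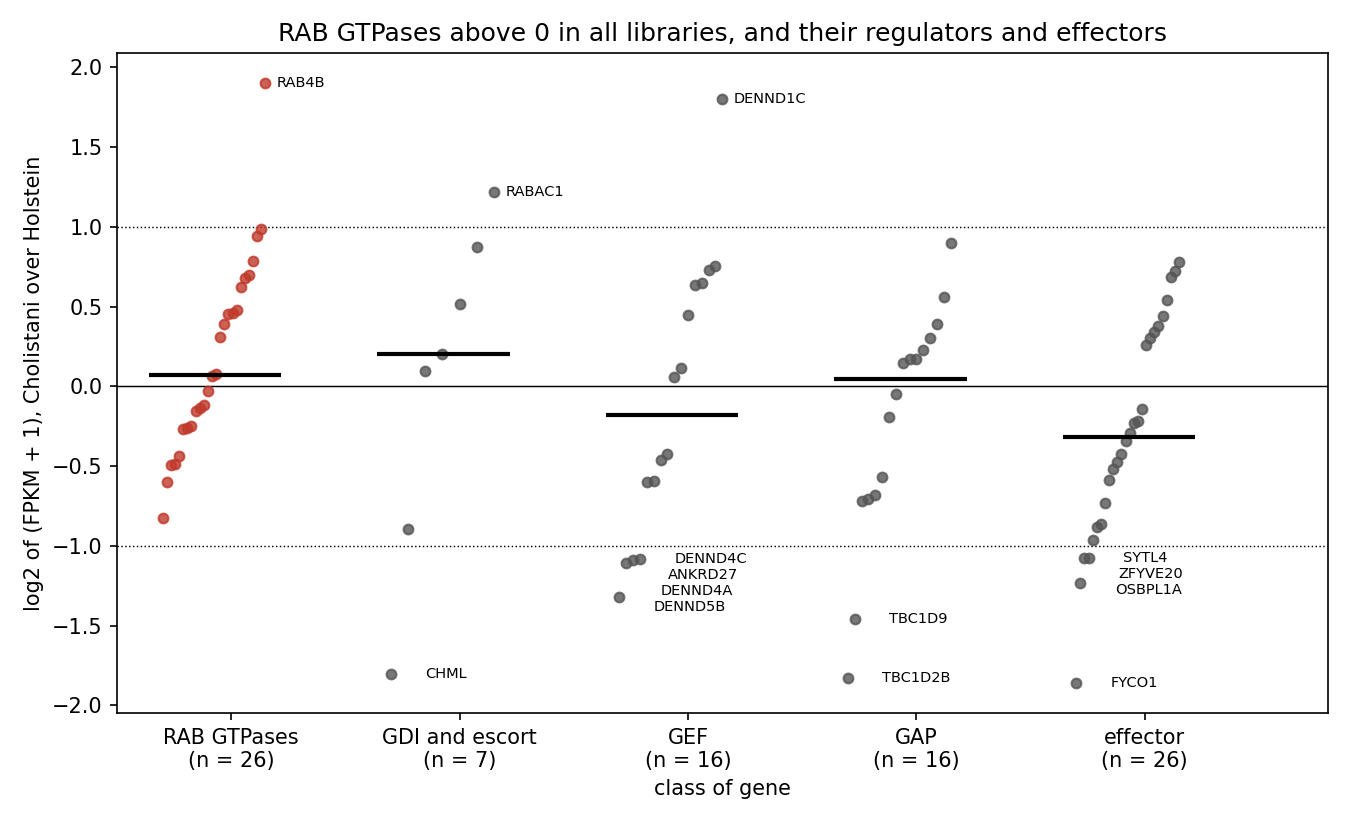
Log2 ratio of FPKM + 1 between the pooled Cholistani and Holstein libraries for the 26 RAB models above 0 in all libraries and for measured escort proteins and GDIs (7), GEFs (16), GAPs (16) and effectors (26), 1 point per gene, with thick bars at the class medians and dotted lines at a 2-fold difference. Genes past the 2-fold limit are named: RAB4B, RABAC1 and DENND1C lie above it and 11 regulators and effectors below it.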

How the data were processed

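Leukocyte RNA of 3 pooled blood samples, 1 per breed, was measured by mRNA-Seq. The authors aligned paired reads to btau4.0 with TopHat 1.0.14 and Bowtie 0.12.7 and estimated FPKM per gene model with Cufflinks 0.9.3, with upper-quartile normalization and bias correction. The deposited FPKM were used unchanged. Coordinates are 1-based, on the reading that the table counts starts from 0. The 5 models without a value in some library, none of them a RAB, were left out. The code for log2 folds of FPKM + 1 (Python 3.11.15, pandas 2.3.3) was run on simulated large changes in well expressed models. This checks the code only and does not bear on folds of low models. Backgrounds cover the 15284 models above 0. The members and lists were chosen with earlier results of these data known. The rule for names took members past 2-fold against both taurine libraries, those past 2-fold from Jersey to Holstein at 10 FPKM or more, the 10 most abundant, those listed at 0 in some libraries but at 10 FPKM or more in another, and the leading member of each role. The other members were named after their values were seen. Of regulators it took up to 6 each way past 2-fold against both taurine libraries and the 3 most abundant, of which 1 is not reported here. Alternatives were a pseudocount of 0.1 or 10 FPKM, a 10 FPKM minimum, equal sums, centring, other detection limits and names on 1 model. Sets without RAB4B or with the RB entries were added after seeing the data.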

Additional observations from a re-analysis of the deposited data

How the results depend on the processing

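With 1 library per breed no replicate could be left out. No paired analysis was possible because each breed has 1 library. The members listed at 0 in a library all had under 15 FPKM elsewhere, and the part of sequencing depth in these zeros was not tested. By the paper's count, mapped fragments were most in Cholistani and fewest in Holstein. The paper also proposes that many low transcripts seen in a single breed may have gone undetected in the others. Between Cholistani and Holstein, the number of members at least 2-fold higher was 1 with a pseudocount of 10 FPKM and with a minimum of 10 FPKM. The number lower was 7 with equal sums but 3 when centred on the median of models with at least 10 FPKM, with RAB2B added. The median log2 fold was -0.56 with equal sums and -0.11 when centred. Between Cholistani and Jersey, 1 member was higher with a pseudocount of 10 FPKM, with equal sums or when centred, but not the same member. It was RAB4B with the pseudocount of 10 FPKM, and RAB25 with equal sums or when centred. The number lower was 1 with a pseudocount of 10 FPKM or a minimum of 10 FPKM, 7 with equal sums and 2 when centred. The median was -0.42 with equal sums and -0.10 when centred. Between Jersey and Holstein, 0 members were higher with a pseudocount of 10 FPKM or a minimum of 10 FPKM. Of the regulators and effectors, set against Holstein, 1 was higher with equal sums. There were 7 lower with a pseudocount of 10 FPKM, 29 with equal sums and 15 when centred. A pseudocount of 10 FPKM lowers the folds of low genes by construction, and RAB19 over Jersey then had a log2 fold of 0.99. The cause of the difference in FPKM sums was not tested. Counts past the limit stayed within 1.5 times without RAB4B, and with RB11A, RB11B and RB27B added.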
